A study of Bos taurus with 6 samples.

Results

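The genes described here make up the pre-mRNA splicing machinery and the heterogeneous nuclear ribonucleoproteins (hnRNPs). They were chosen by name: every probe set of the Affymetrix Bovine Genome Array whose annotation gives a single gene symbol starting with SRSF, HNRNP, SF3A, SF3B, SNRP, LSM or U2AF. This gave 79 probe sets of 55 genes, of 24016 probe sets and 9155 named genes on the array outside the controls. A probe set is a group of short oligonucleotides that reports 1 transcript as a single value. All 79 were among the 18937 probe sets tested. The rule reads gene names only.

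The study set blastocysts of Bos taurus against late degenerative embryos, with 3 pools of 20 embryos in each group, named by the letters A, B and C and measured on an array each. All embryos came from in vitro fertilization, had compacted into morulae, and were graded on day 8 of culture. Those graded as blastocysts showed an inner cell mass and a fluid cavity, and the degenerative ones had not made that step. Each pool mixed embryos of several cows and bulls, none was genetically modified, and its RNA was amplified before labeling. By the numbers of bulls the study gives, any pair of pools shared a sire, so the pools were not fully independent.

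Splicing removes introns from nascent transcripts. The small nuclear ribonucleoproteins (snRNPs) carry a ring of Sm proteins, or of LSm proteins on U6, and recognise the splice sites together with U2AF and the SF3A and SF3B subunits of the U2 particle. SR proteins bind exons and mostly favour the use of nearby splice sites, whereas hnRNPs coat the transcript and often oppose it. Embryos start to make these transcripts themselves at genome activation. The prefix rule also brought in proteins that do not splice: LSM1 marks the cytoplasmic ring of mRNA decay, LSM10 belongs to the U7 particle that cuts histone transcripts, and LSM14A is found in P-bodies.

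No splicing factor or hnRNP probe set passed the threshold between the groups. Values were log2 expression, and limma at an adjusted p of at most 0.15 called 0 of the 79, where it called 4 of all probe sets (0.0211%). The smallest adjusted p among the 79 was 0.483. At an unadjusted p under 0.05 there were 3 (3.8%), beside 8.61% of all probe sets. With the pool letter as a block these shares were 13.9% and 9.45%. The letters are not known to mark pairs, and the block was taken up from these same values, so its p-values below are descriptive. SAM, the permutation method of the study, called 0 at a false discovery rate of 15% (0.354% of all probe sets) and 1, a probe set of HNRNPDL, at 25% (4.66%). Each array measures a whole pool, so fewer cells of a type and less RNA per cell cannot be told apart.

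The differences, degenerative embryos minus blastocysts, were small and lay about evenly on both sides of 0. Of the 79 probe sets, 38 were higher and 41 lower, with a median of -0.014 on the log2 scale, against 0.001 over all probe sets. They ran from -1.33 to 1.40, and 41 (51.9%) were within 0.25 of 0, against 46.97% of all probe sets. Both ends were probe sets of low level, of LSM5 (mean 4.36) and SF3B1 (mean 5.04). A difference over 1 in either direction, a doubling, was found in 6 (7.59%), beside 10.9% of all probe sets. Most lay clear of the floor of the scale: 68 of the 79 (86.08%) averaged 5 or more over the 6 arrays, against 59.76% of all, and these are called bright below. Pools of 1 group differed among themselves by a median SD of 0.35 (0.38 over all probe sets). The degenerative pools were the more scattered in 51 of the 79, beside 12918 of all 18937 probe sets.

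**Figure D1:**
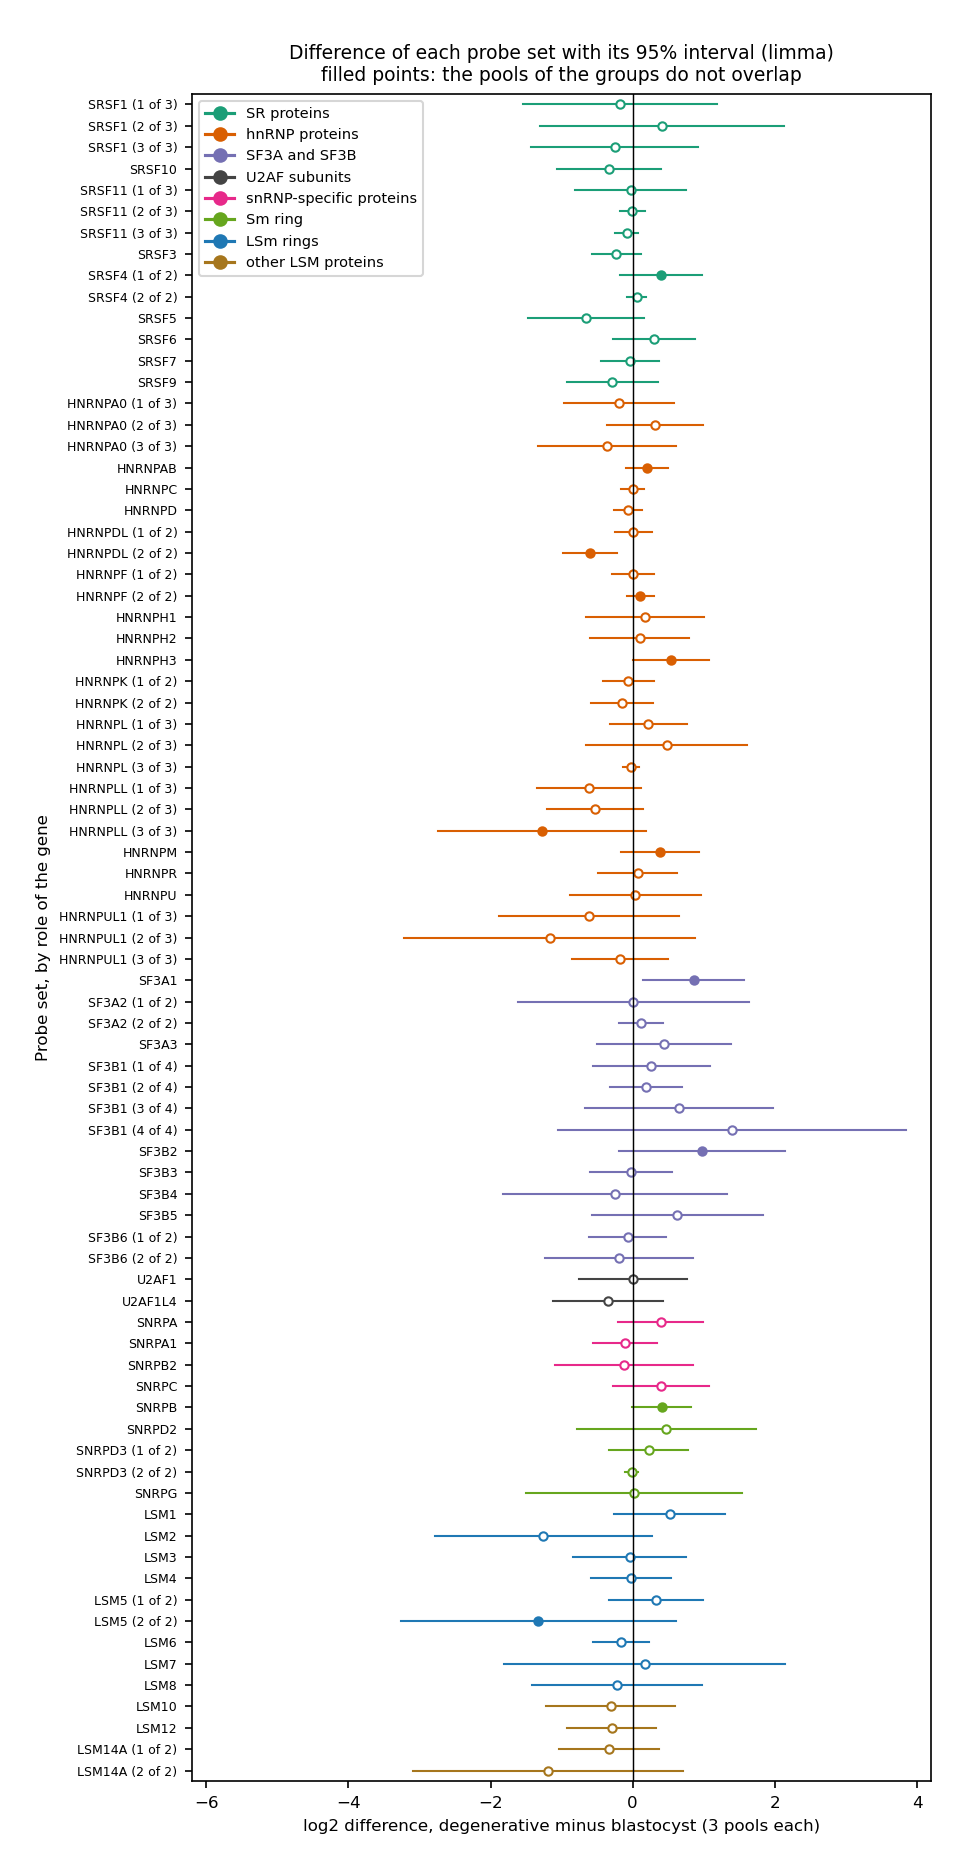
The log2 difference (degenerative minus blastocyst, 3 pools each) of each of the 79 probe sets is plotted on the x axis with its 95% interval from limma, 1 row per probe set, coloured by role. Filled points mark the 11 probe sets whose pools did not overlap between groups. Most intervals cross 0, and those of HNRNPDL (2 of 2), SF3A1 and HNRNPH3 do not.

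In 11 probe sets (13.9%) the 3 pools of one group all lay above the 3 of the other, beside 15.4% of all probe sets. Of these, 8 were higher in degenerative embryos (10.1%, against 6.48% of all) and 3 were lower (3.8%, against 8.93%). With 1 probe set per gene, the brightest, 7 of the 55 genes were higher without overlap and 0 lower, beside 8.99% and 9.16% of 8189 genes. The 7 genes were SF3A1, SF3B2, HNRNPH3, HNRNPM, HNRNPAB, SRSF4 and SNRPB.

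Markers of cell types were compared between the same pools. Of 10 trophectoderm genes measured, 8 were lower in degenerative embryos, 3 of them without overlap, and the log2 of their summed level was 16.4 to 16.8 in blastocysts and 15.999 to 16.28 in degenerative embryos. All 3 inner cell mass genes measured (POU5F1, SOX2 and KLF4) were higher, with sums of 13.9 to 14.1 and 14.18 to 14.98. Of 8 maternal oocyte genes 7 had means under 5 in both groups, GDF9 and BMP15 had a single value on all arrays, and the 6 tested were all higher, with sums of 7.18 to 7.89 and 8.01 to 8.72. Of 6 hypoblast genes 3 were higher and 3 lower, 6 of 12 cumulus and granulosa genes and 6 of 7 sperm genes had means under 5, while limma called 0 genes of these lists. At an unadjusted p under 0.05 there were 3 trophectoderm genes lower and 1 oocyte gene higher, beside 846 of all 8189 genes. SAM at 25% called 2 of the trophectoderm genes, beside 428 of the 8189. The 3 trophectoderm genes lower without overlap (30%) stand beside 9.16% of all genes. Higher without overlap were 2 of the 3 inner cell mass genes and 3 of the 6 oocyte genes tested (66.7% and 50%). So was 1 of 10 cumulus and granulosa genes tested (10%), beside 8.99% of all genes. The median differences of the trophectoderm, inner cell mass and oocyte genes were -1.005, 0.51 and 1.02. Without degenerative pool A they were -0.374, 0.31 and 0.67, and without both A pools -0.193, 0.355 and 0.551. Of the 10 trophectoderm genes, 9 were lower without degenerative pool A, so their direction held while their median shrank. The part of cell makeup in the differences given here was not tested.

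**Figure D2:**
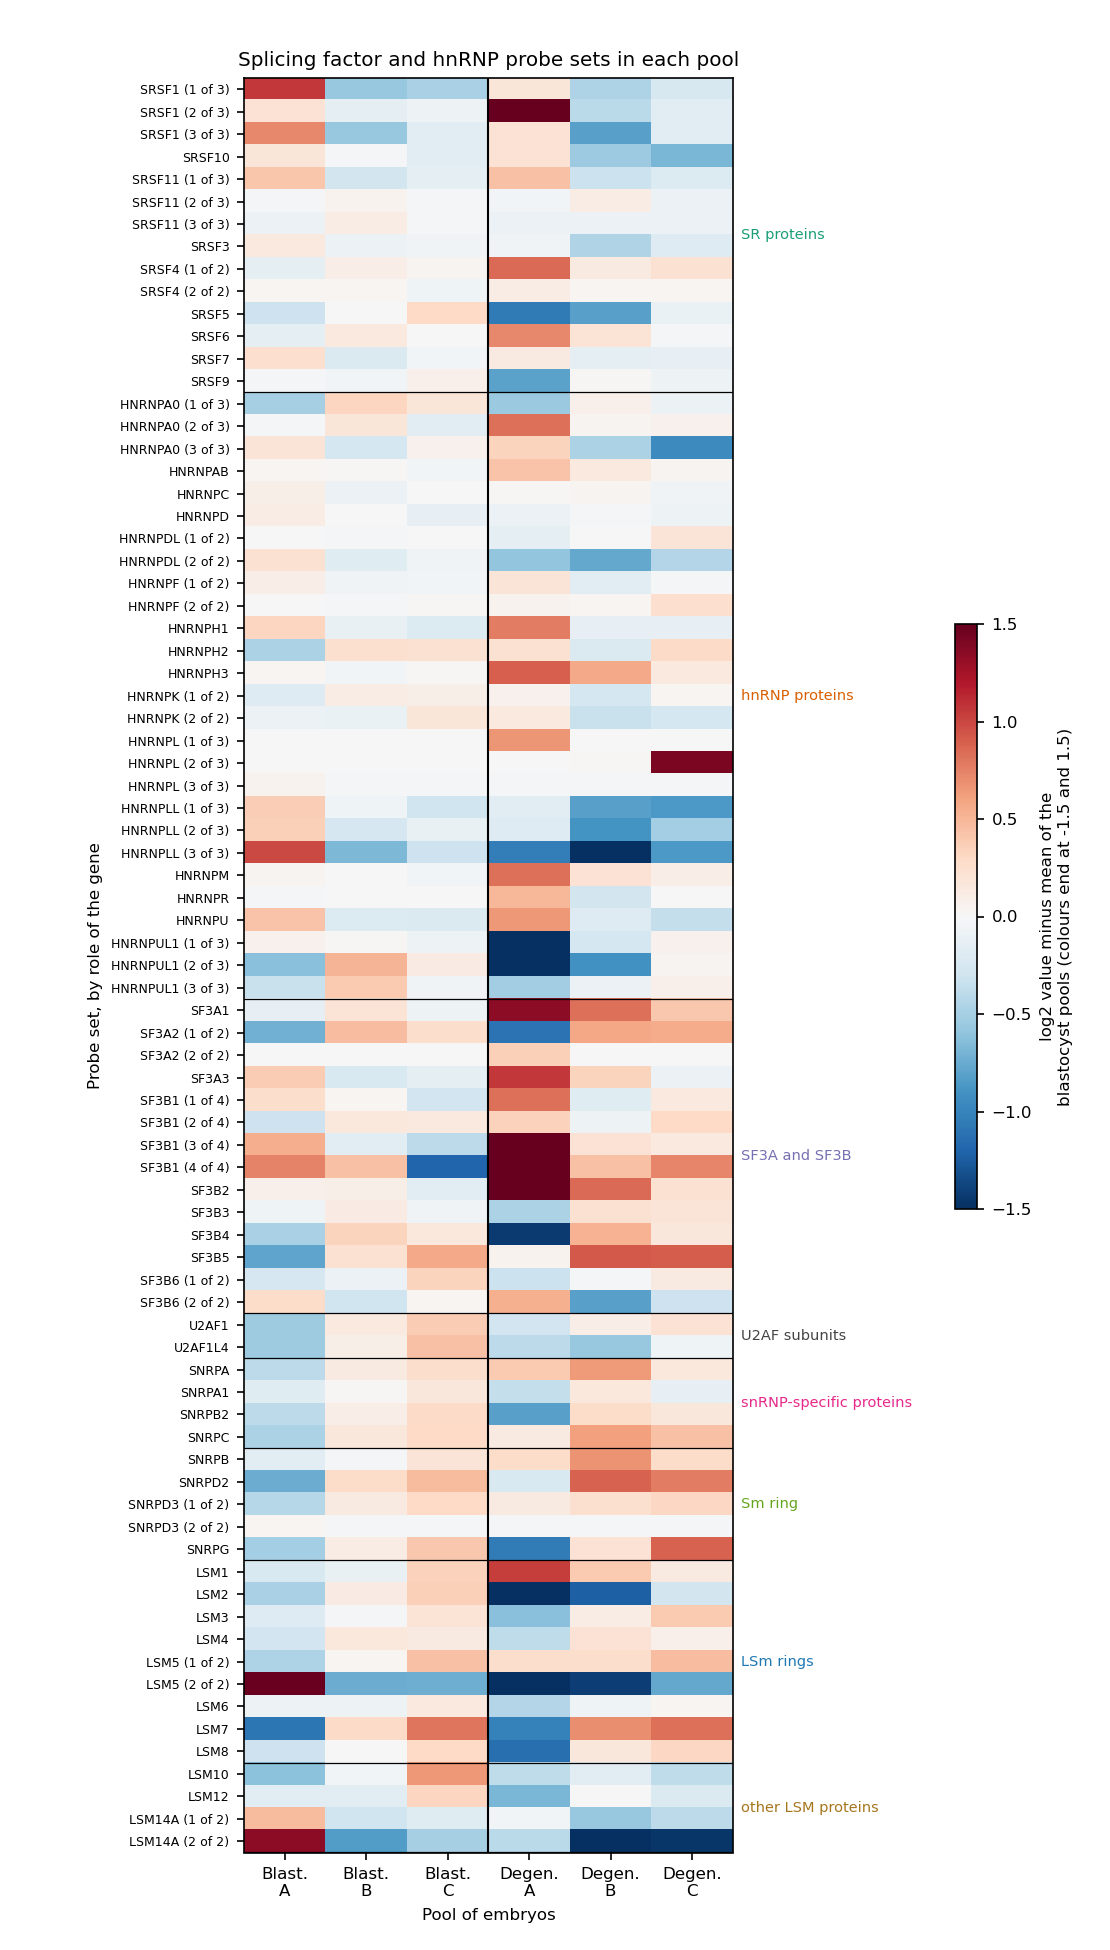
Each row is 1 of the 79 probe sets, grouped by role, and each column 1 pool (Blast., blastocysts; Degen., degenerative embryos). Colours give the log2 value minus the mean of the 3 blastocyst pools, and probe sets of 1 gene are numbered from the brightest down. Degenerative pool A holds most of the strong colours. Pool A is blue in both groups for many of the snRNP, Sm and LSm rows, while degenerative pool A is red in others, such as LSM1, SNRPA and SNRPB.

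The SR proteins, named for their domain of serine and arginine repeats, were represented by 14 probe sets of 9 genes. Of these, 4 were higher and 10 lower in degenerative embryos, with a median of -0.06, and 0 passed limma at the adjusted threshold. SRSF5, an SR protein with a pair of RNA recognition motifs, differed most. Its blastocyst pools A, B and C stood at 11.63, 11.94 and 12.24 and its degenerative pools at 10.88, 11.12 and 11.84. The degenerative pool of each letter was below its blastocyst counterpart, but pool C overlapped the blastocysts. The difference was -0.65 (SE 0.31, adjusted p = 0.628), and with the letter as a block its unadjusted p went from 0.0938 to 0.015.

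SRSF3, the smallest SR protein, which also acts in mRNA export, read 14.04, 13.79 and 13.83 in blastocysts and 13.84, 13.44 and 13.70 in degenerative embryos. The groups overlapped, and the difference was -0.23 (SE 0.13, adjusted p = 0.679). SRSF4 was the member of this family without overlap: 10.72, 10.95 and 10.90 in blastocysts against 11.71, 10.99 and 11.08. Only degenerative pool A stood clearly apart, and the difference of 0.40 (SE 0.22, adjusted p = 0.661) was 0.18 without that pool. A second SRSF4 probe set lay near the floor of the scale on every array and differed by 0.06.

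The 3 probe sets of SRSF1, a classical SR protein, did not move together. The first read 11.71, 10.08 and 10.17 in blastocysts and 10.84, 10.19 and 10.41 in degenerative embryos. The second had a single high array, degenerative pool A at 11.55, while the other 5 pools lay between 9.33 and 9.96. Their differences were -0.17 and 0.41, and that of the third -0.26, each smaller than its SE. Among the other SR genes, SRSF6 differed by 0.30, SRSF7 by -0.04, SRSF9 by -0.28 and SRSF10 by -0.33. Of the 3 SRSF11 probe sets, the bright one differed by -0.03, and the others stayed near the floor.

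The hnRNPs formed the largest group, with 27 probe sets of 16 genes, 14 higher and 13 lower, and a median of 0.00. None was called by limma, and 6 had no overlap between the groups. Of these, 4 were higher (14.8%) and 2 lower (7.41%), beside 6.48% and 8.93% of all probe sets. HNRNPDL, an hnRNP D relative that binds AU-rich RNA, had the smallest p of all members in its dimmer probe set. There the blastocyst pools were at 10.92, 10.51 and 10.63 and the degenerative pools at 10.09, 9.92 and 10.24. Every degenerative pool lay below every blastocyst pool, by at least 0.26. The difference was -0.60 (SE 0.15, 95% interval -0.98 to -0.22), with an adjusted p of 0.483 by limma. Its unadjusted p was 0.0104, and 0.0174 with the letter as a block. The other HNRNPDL probe set did not show this fall. Its pools read 14.58, 14.56 and 14.58 in blastocysts and 14.42, 14.56 and 14.76 in degenerative embryos, a difference of 0.01 (interval -0.25 to 0.27).

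HNRNPLL, which controls the alternative splicing of CD45 in lymphocytes, was lower in all 3 of its probe sets. The brightest read 11.05, 10.62 and 10.38 in blastocysts and 10.53, 9.87 and 9.82 in degenerative embryos. The second read 10.82, 10.21 and 10.35 against 10.27, 9.56 and 9.95. In both, pool A was the highest of its group and the groups overlapped through degenerative pool A, yet each letter's degenerative pool was lower than its blastocyst pool by 0.40 to 0.75.

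The third probe set of HNRNPLL had no overlap, with 9.47, 7.80 and 8.16 in blastocysts against 7.44, 6.55 and 7.61. The differences of the 3 probe sets were -0.61 (SE 0.28), -0.53 (SE 0.26) and -1.27 (SE 0.56), with adjusted p of 0.624, 0.628 and 0.616. The last was -0.78 without blastocyst pool A. With the replicate letter as a block the unadjusted p were 0.00555, 0.00827 and 0.046, and the adjusted p stayed at 0.491 or above. The 3 probe sets report 1 gene in the same pools and are not independent of each other.

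**Figure D3:**
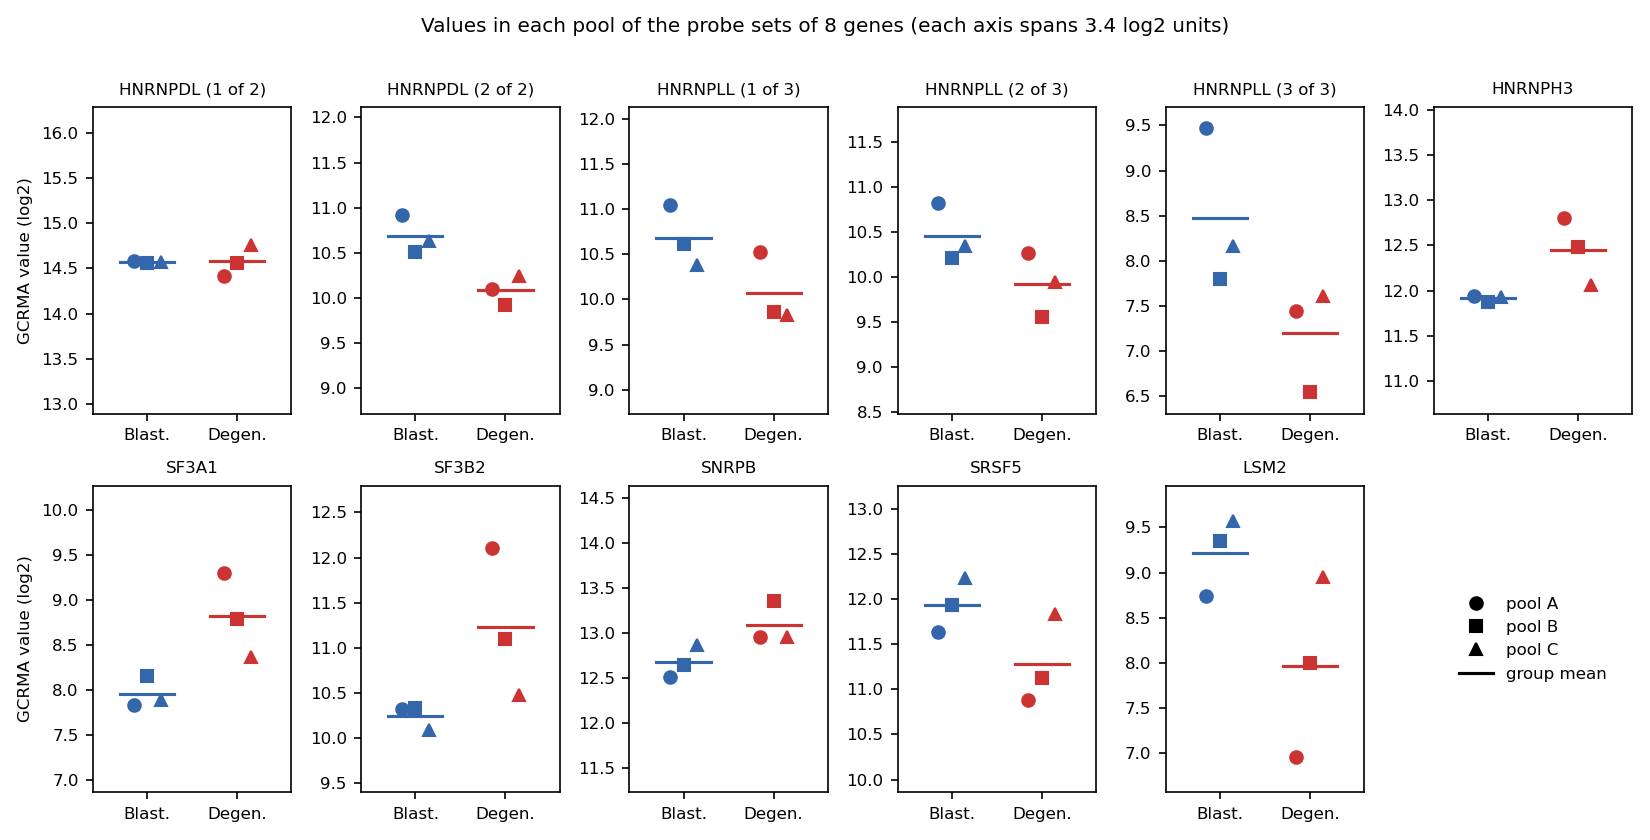
Log2 GCRMA values of 11 probe sets of 8 genes in each pool, with pools A, B and C as circles, squares and triangles and the group mean as a line. Each axis spans the same range of log2 units, placed around the probe set's own values. HNRNPDL (2 of 2) and the HNRNPLL probe sets are lower in the degenerative pools, and SF3A1, SF3B2, HNRNPH3 and SNRPB higher, with degenerative pool A often farthest out.

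HNRNPH3, a relative of the G-run binding proteins hnRNP H and F, was the hnRNP with the smallest p among those higher in degenerative embryos. Its blastocyst pools agreed closely at 11.94, 11.87 and 11.93, and the degenerative pools read 12.81, 12.49 and 12.06. Every degenerative pool was above every blastocyst pool. The difference was 0.54 (SE 0.20, adjusted p = 0.58), and 0.36 without degenerative pool A. With the letter as a block its unadjusted limma p went from 0.0491 to 0.0752. HNRNPH1 and HNRNPH2 of the same subfamily differed by 0.18 and 0.10 with overlapping pools.

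HNRNPM, which takes part in splice site choice, read 14.30, 14.25 and 14.22 in blastocysts and 15.08, 14.48 and 14.36 in degenerative embryos. The groups did not overlap, and the difference was 0.38 (SE 0.21, adjusted p = 0.659), falling to 0.16 without degenerative pool A. HNRNPAB, an hnRNP of the A/B type, read 13.90, 13.89 and 13.83 against 14.30, 14.02 and 13.91, a difference of 0.20 (SE 0.11) without overlap that was 0.09 without degenerative pool A. HNRNPF had 1 probe set without overlap, at 0.11 (SE 0.07), whose ID ends in _s_at and which can match several transcripts. Its other probe set read 14.85, 14.69 and 14.70 against 14.93, 14.58 and 14.72, a difference of 0.00 (interval -0.29 to 0.29).

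The 3 probe sets of HNRNPUL1, an hnRNP U relative, were all lower on average, at -0.61, -1.16 and -0.17. The second probe set read 8.41, 9.54 and 9.16 in blastocysts and 6.42, 8.13 and 9.07 in degenerative embryos. Its letter pairs differed by -1.99, -1.41 and -0.09. Without degenerative pool A the 3 differences were smaller, at -0.10, -0.44 and -0.00.

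Among the classical hnRNPs, HNRNPC, which binds uridine tracts, read 13.17, 13.003 and 13.09 in blastocysts against 13.11, 13.13 and 13.04, and its 95% interval was -0.16 to 0.16. HNRNPD, an AU-rich binding protein, differed by -0.06 (interval -0.26 to 0.14). HNRNPK, a poly(C) binding protein, differed by -0.06 and -0.15 in its 2 probe sets, HNRNPR by 0.07 and HNRNPU, a nuclear scaffold protein, by 0.04 (interval -0.88 to 0.96). Of the 3 HNRNPA0 probe sets 1 was higher, at 0.31, and the others lower, at -0.19 and -0.37. HNRNPL was measured by 3 dim probe sets, each under 5 on every array, so its level is not resolved here.

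The subunits of SF3A and SF3B, which hold the U2 particle on the branch point, were measured by 14 probe sets of 9 genes. Of these, 10 (71.43%) were higher and 4 lower, with a median of 0.22, beside 51.71% higher over all probe sets. SF3B1 gave 4 of the 10 and SF3A2 gave 2, so the 10 are not independent of each other. No probe set of the group passed the adjusted threshold (smallest adjusted p 0.542). SF3A1, the subunit that bridges to U1, was among the 3 members with an unadjusted p under 0.05. It read 7.83, 8.16 and 7.89 in blastocysts and 9.30, 8.79 and 8.36 in degenerative embryos. The groups did not overlap, and the difference of 0.86 (SE 0.27) is a 1.81-fold change in level. It was 0.62 without degenerative pool A, and with the letter as a block the unadjusted limma p went from 0.0267 to 0.0555. SF3B2 read 10.33, 10.33 and 10.09 against 12.11, 11.10 and 10.48, also without overlap. The difference was 0.98 (SE 0.45, adjusted p = 0.624), or 1.97-fold, and 0.54 without degenerative pool A.

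SF3B1, the large subunit that contacts the branch point region, had 4 probe sets, all higher on average, at 0.26, 0.19, 0.65 and 1.40 from the brightest to the dimmest. In all 4 the groups overlapped. The third read 6.83, 6.12 and 5.88 in blastocysts and 7.87, 6.49 and 6.43 in degenerative embryos, higher in each letter pair, and its difference was 0.18 without degenerative pool A. The dimmest read 5.09, 4.78 and 3.14 against 7.36, 4.78 and 5.07. The B pools of both groups were equal there, and without degenerative pool A the difference was 0.59 (1.40 with it). The mean of this probe set, 5.04, is barely over the level of 5 set for bright ones. The adjusted p of the 4 probe sets was 0.722 or above.

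SF3B5, a small subunit of SF3B, was higher in each letter pair although the groups overlapped. It read 8.73, 9.75 and 10.08 in blastocysts and 9.58, 10.44 and 10.43 in degenerative embryos, a difference of 0.63 (SE 0.46) that was 0.23 without blastocyst pool A. Its unadjusted p went from 0.234 to 0.023 with the block. SF3A3 differed by 0.44 and SF3B4 by -0.25. SF3B3 at -0.02, SF3A2 at 0.01 and SF3B6, which touches the branch point adenosine, at -0.07 in its bright probe set were close to 0. A dim probe set each of SF3A2 and SF3B6 differed by 0.12 and -0.20.

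Of the U2AF subunits 2 probe sets were measured. U2AF1, which reads the AG at the end of the intron, stood at 11.76, 12.44 and 12.67 in blastocysts and 11.99, 12.38 and 12.501 in degenerative embryos, a difference of 0.01 (interval -0.76 to 0.77). Its relative U2AF1L4 read 8.58, 9.20 and 9.55 against 8.72, 8.54 and 9.04, a difference of -0.34 (SE 0.30), or -0.61 without blastocyst pool A. The groups overlapped in both genes.

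Proteins particular to 1 snRNP were represented by SNRPA and SNRPC of U1 and SNRPA1 and SNRPB2 of U2. The U1 proteins were higher and the U2 proteins slightly lower on average. SNRPC, which contacts the start of the intron, read 12.43, 13.07 and 13.21 in blastocysts and 13.04, 13.52 and 13.34 in degenerative embryos. Each letter pair was higher, but blastocyst pools B and C overlapped degenerative pool A, and the difference was 0.40 (SE 0.26, adjusted p = 0.714), or 0.16 without blastocyst pool A. SNRPA differed by 0.39 (SE 0.23), or 0.20 without that pool, SNRPA1 by -0.11 and SNRPB2 by -0.12, all with overlap.

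The Sm ring was measured by 5 probe sets of SNRPB, SNRPD2, SNRPD3 and SNRPG. All 4 bright ones were higher on average, and the dim one, of SNRPD3, stayed at the floor. SNRPB read 12.51, 12.65 and 12.87 in blastocysts and 12.95, 13.35 and 12.95 in degenerative embryos. The groups were apart by 0.08, and the difference was 0.41 (SE 0.16, unadjusted p = 0.0542, adjusted p = 0.588). With the letter as a block the unadjusted limma p of SNRPB was 0.0914. SNRPD2 read 11.33, 12.35 and 12.56 against 11.85, 12.96 and 12.84. Its A pool was the lowest of both groups, and the degenerative pool was higher by 0.52, 0.61 and 0.29 for letters A, B and C. The difference was 0.47 (SE 0.48), with an unadjusted p of 0.373 alone and 0.019 with the block. Without blastocyst pool A it was 0.10. SNRPD3 differed by 0.23 (0.01 without blastocyst pool A) and SNRPG by 0.02.

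Among the LSm rings, 3 of 9 probe sets were higher and 6 lower, with a median of -0.04. LSM2, a subunit of both the nuclear U6 ring and the cytoplasmic ring, read 8.74, 9.35 and 9.58 in blastocysts and 6.95, 7.997 and 8.95 in degenerative embryos. It was lower in each letter pair, but pool C of the degenerative embryos lay above blastocyst pool A. The difference was -1.26 (SE 0.58, adjusted p = 0.624), and -0.75 without degenerative pool A. LSM1, which marks the decay ring, read 9.35, 9.47 and 9.93 against 10.62, 9.98 and 9.72, a difference of 0.52 (SE 0.30) carried by pools A and B, and 0.26 without degenerative pool A. LSM8, its counterpart in the U6 ring, read 9.93, 10.23 and 10.54 against 9.10, 10.41 and 10.54. That difference was -0.22 (SE 0.46) with degenerative pool A and 0.24 without it.

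LSM5 shows how probe sets of 1 gene can part. Its bright probe set read 9.31, 9.80 and 10.22 in blastocysts and 10.04, 10.04 and 10.24 in degenerative embryos, a difference of 0.33 (SE 0.25), or 0.10 without blastocyst pool A. The dim one read 6.50, 4.27 and 4.29 against 3.23, 3.60 and 4.25, without overlap but by 0.02 only, and its difference of -1.33 (SE 0.74) came mostly from the A pools, which differed by -3.27. LSM4 differed by -0.03, LSM3 by -0.04, LSM6 by -0.16 and LSM7 by 0.17. Of the 16 genes with several probe sets, 6 had them on both sides of 0.

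The 4 probe sets of the other LSM genes were all lower on average, with a median of -0.32. LSM14A, a P-body protein of translational repression, was lower in both. The bright probe set read 13.41, 12.64 and 12.76 in blastocysts and 12.90, 12.37 and 12.54 in degenerative embryos, and the other 9.12, 6.95 and 7.29 against 7.38, 6.08 and 6.33. Pool A was the highest of its group in each case, and every letter pair was lower. The differences were -0.33 (SE 0.27) and -1.19 (SE 0.72), with unadjusted p of 0.27 and 0.166 that became 0.0395 and 0.0196 with the block. Without blastocyst pool A the differences were -0.10 and -0.52. LSM10 and LSM12 differed by -0.31 and -0.30 with overlap, the latter by -0.10 without degenerative pool A.

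Deviations of same-letter pools correlated across probe sets at 0.373 (A), 0.180 (B) and 0.275 (C). Blastocyst pool C and degenerative pool B correlated at 0.374, and blastocyst pool B and degenerative pool C at 0.132. These values do not single out the same-letter pairing of the B and C pools. The pairing was taken up from these same values, and it changed which members had a small p. In 30 probe sets (38%) all 3 letter pairs went in 1 direction, 17 higher and 13 lower, beside 34% of all probe sets. With the letter as a block, limma gave an unadjusted p under 0.05 to 11 members (13.9%), beside 9.45% of all probe sets, where it gave 3 without it. They were the 3 probe sets of HNRNPLL, both of LSM14A, SRSF5, LSM2 and HNRNPDL, which were lower, and SF3B5, SNRPD2 and the third SF3B1 probe set, which were higher. None passed the adjusted threshold, the smallest adjusted p being 0.491, and of the other probe sets none did so either. Of the 3 members under 0.05 without the block, HNRNPDL stayed there, while SF3A1 and HNRNPH3 went to 0.0555 and 0.0752.

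Pool A stood apart from pools B and C in both groups, with a direction that differed by role. Among the 16 bright probe sets of snRNP, Sm and LSm ring proteins, pool A was below the mean of B and C in both groups for 15, LSM1 being the exception in degenerative embryos. Among the 35 bright probe sets of SR and hnRNP proteins, pool A was above it in both groups for 19 and below it for 5. Over all 11316 bright probe sets the counts were 3677 above and 3592 below in both groups (32.49% and 31.74%). These groupings were made after the values were seen, and the members share the same 6 arrays, so they are a description without a test.

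**Figure D4:**
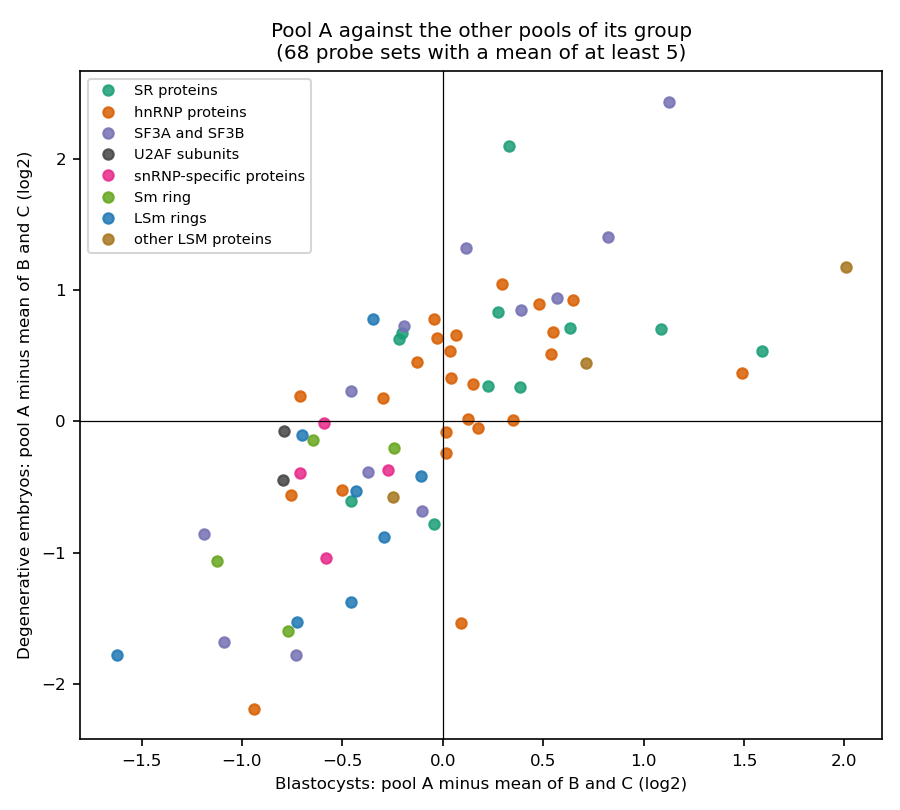
For the 68 bright probe sets (mean of 5 or more over the arrays), the x axis gives blastocyst pool A minus the mean of blastocyst pools B and C and the y axis the same for degenerative embryos, both in log2 units. Points are coloured by role. Sm ring, snRNP-specific and nearly all LSm ring points lie at the lower left, and many SR and hnRNP points at the upper right.

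LSM7 shows the pattern in a ring protein. Its blastocyst pools read 8.74, 10.10 and 10.62 and its degenerative pools 8.80, 10.52 and 10.65, so that pool A lay below the mean of the others by 1.62 and 1.78. The letter pairs differed by 0.06, 0.41 and 0.03, less than pool A did from the other pools of its group. SNRPG, with 10.91, 11.54 and 11.83 in blastocysts and 10.38, 11.64 and 12.31 in degenerative embryos, had the same order of pools in both groups. Pool A was instead the highest of both groups in SRSF11, whose bright probe set read 13.19, 12.49 and 12.63 against 13.22, 12.45 and 12.56.

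Degenerative pool A was the pool farthest from the rest of its group in 49 of the 68 bright probe sets, and blastocyst pool A in 45, beside 7056 and 6770 of all 11316. Of the 68, 43 lay over 0.5 from the mean of the other pools of the group in degenerative pool A and 30 in blastocyst pool A, against 8 to 22 in the others. The median size of that distance in degenerative pool A was 0.63 over these members and 0.71 over all bright probe sets. The signal of the GAPDH 3' probe set minus its 5' probe set, which rises as RNA is truncated, was 1.83, 2.89 and 2.57 in blastocyst pools A, B and C and 2.51, 2.52 and 2.48 in degenerative pools. For EEF1A1 it was -1.65, 0.87 and -0.35 against 0.83, 0.70 and 0.52. Blastocyst pool A was the lowest in both. The middle GAPDH probe set minus the 5' one was 0.40, 0.98 and 0.82 in blastocysts and 1.28, 0.93 and 0.85 in degenerative embryos. For ACTA1, whose 5' probe set was at the floor, the 3' minus 5' difference was 5.37, 6.65 and 5.92 against 2.29, 4.94 and 3.08. With the 5' value nearly constant, the ACTA1 difference follows the 3' level and cannot report RNA length. Degenerative pool A was the highest of the 6 in the middle GAPDH difference and the lowest in that of ACTA1. The part of RNA length in the pool patterns was not tested.

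Other genes of the splicing pathway were taken from lists with 1 probe set per gene. On that basis 29 of the 55 splicing factor and hnRNP genes were higher and 26 lower, with a median of 0.00. Of 54 other spliceosome genes measured, 36 were higher and 18 lower with a median of 0.20, and 0 were called by limma. No overlap was found in 13 (24.1%) and an unadjusted p under 0.05 in 8, all higher. Over all genes 8.99% were higher and 9.16% lower without overlap, and 846 of 8189 had an unadjusted p under 0.05 in either direction. SAM at 25% called 3 of the 54, beside 428 of the 8189. WBP11, a spliceosome activator, read 10.10, 10.01 and 9.97 in blastocysts and 10.43, 10.36 and 10.28 in degenerative embryos, a difference of 0.33 (SE 0.06, adjusted p = 0.433). PRPF4 of the tri-snRNP differed by 0.46 (SE 0.10), and SNRNP70 of U1, chosen after its values were seen, by 0.57 (SE 0.12).

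Of 18 exon junction complex and SR-related genes, 10 were higher and 8 lower with a median of 0.10. Without overlap 6 were higher (33.3%) and 1 lower (5.56%), beside 8.99% and 9.16% of all genes. CASC3 of the exon junction complex differed by 0.56 (SE 0.13) and SON, a nuclear speckle protein, by 1.03 (SE 0.31). Of 24 other splicing regulators 15 were higher and 9 lower with a median of 0.25, 6 higher (25%) and 1 lower (4.17%) without overlap. RBM4 differed by 0.56 (SE 0.14) and PTBP1, the polypyrimidine tract binding protein, by 1.17 (SE 0.36). Of 11 genes of the SMN complex and Sm methylation, which assemble the Sm ring, 9 were higher and 2 lower with a median of 0.17. Without overlap 2 were higher (18.2%). SMN2, annotated for the survival motor neuron protein, differed by -0.71 (SE 0.30) and PRMT5, which methylates Sm proteins, by 0.65 (SE 0.34), both with overlap. In these 3 lists limma called 0 genes, with 7 higher and 1 lower at an unadjusted p under 0.05. SAM at 25% called 1, MAGOHB of the exon junction complex, at -0.56 (SE 0.19). Over all 8189 genes the counts were 846 at an unadjusted p under 0.05 and 428 by SAM at 25%. Without degenerative pool A the medians of the 4 lists were 0.16, 0.08, 0.08 and 0.06, and without both A pools 0.08, 0.15, 0.14 and 0.11. The difference between these lists and the 55 genes was not tested.

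**Figure D5:**
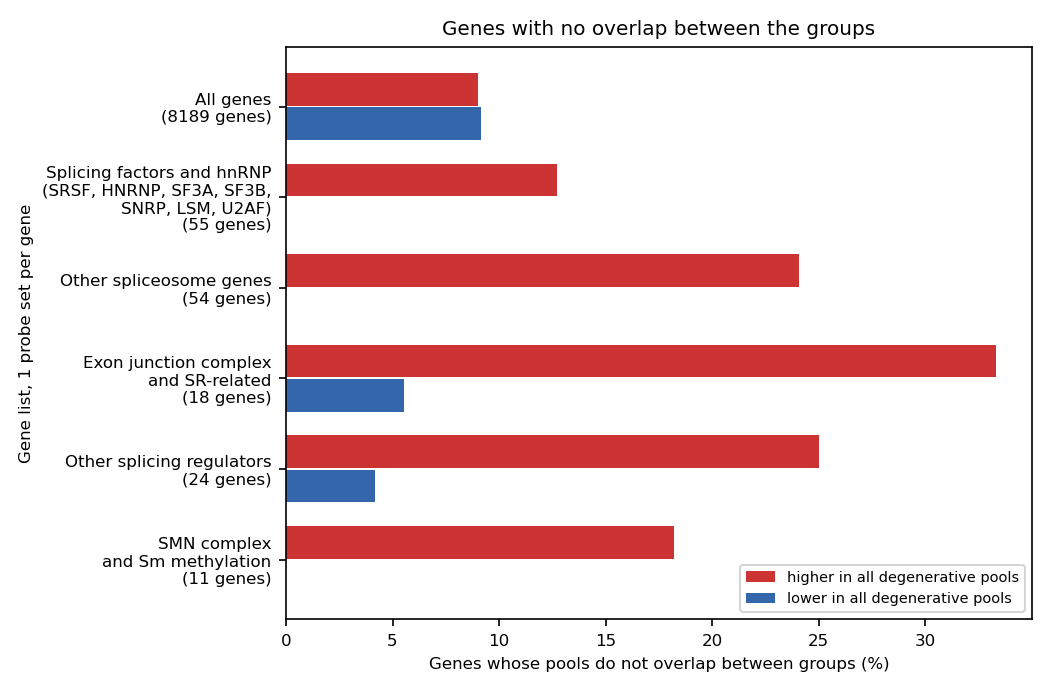
Bars give the percent of genes, 1 probe set per gene, whose 3 degenerative pools all lay above (red) or below (blue) the 3 blastocyst pools. The share for the 55 splicing factor and hnRNP genes is 12.73% higher and 0% lower, beside 8.99% and 9.16% of all genes, and the bars of the other splicing lists reach 18.2 to 33.3% higher.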

How the data were processed

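The deposited log2 values, 1 for each probe set and pool, were computed by the authors with GCRMA 2.14.1 (background from probe affinity, quantile normalization and median polish). Arrays have no read depth, and the number of pools limits precision. Tests left out 20 control probe sets and 5079 that did not vary between arrays. Gene symbols came from the platform annotation, updated through a gene table, and all 79 probe sets matched by gene ID. Another 2 probe sets with several symbols were not used.

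The groups were compared by lmFit and eBayes of limma 3.58.1 (R 4.3.3; Benjamini-Hochberg over 18937 probe sets) and called at an adjusted p of at most 0.15. SAM was rewritten from its description. The members and gene lists were chosen with earlier results of these data known. Named members were those with an unadjusted p under 0.05 and no overlap, the 3 smallest p and the brightest probe set of each role, the 5 largest differences in each direction, and genes whose probe sets parted with 1 at 0.5 or more. In each other splicing list the 2 smallest p were named. Other values given were chosen after they were seen.

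What the letters stand for is not given in the sources used here. Deviations of same-letter pools correlated across probe sets at r = 0.373 (A), 0.180 (B) and 0.275 (C), so the letter was used as a block, although blastocyst pool C and degenerative pool B correlated at 0.374. The limma p-values set each difference against the spread between pools, which eBayes moderates over all tested probe sets. Alternatives were array centring, filters, a trend and robust variance, the block, and leaving out pools.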

Additional observations from a re-analysis of the deposited data

How the results depend on the processing

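No member passed limma's threshold under any of the fits, and the smallest adjusted p of a named member was 0.266. SAM at 25% called 1 and an unadjusted p under 0.05 was found in 3. Over all probe sets the 4 calls became 1 with centred arrays, 1 with dim probe sets left out, 1 with a trend and robust variance, 0 with the replicate block, 0 without both A pools (an alternative chosen after seeing the data), 0 to 33 without 1 pool each (33 without degenerative A, 12 without degenerative C, 2 without blastocyst A, 0 without the others), 67 and 883 by SAM at 15% and 25%, 30 at an adjusted p of 0.25 and 1631 at an unadjusted p under 0.05.

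The members' median difference of -0.0145 ranged from -0.0724 to 0.0122 without 1 pool each. The 11 members without overlap were 7 with 1 probe set per gene and 13 to 27 without 1 pool each: 22 without blastocyst A, 17 without blastocyst C, 27 without degenerative A and 18 without degenerative C, where the shares of all probe sets were 22.9%, 21.6%, 30.0% and 27.6%. Without both A pools there were 39 (49.4%, against 38.9% of all). Fewer pools leave fewer chances of overlap.

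Of 372 values of the 31 named probe sets under alternatives, 355 kept their sign. The others, all of differences near 0, were LSM4 (0.0048 centred, 0.0068 without both A pools, -0.1697 to 0.1513 without 1 pool), U2AF1 (-0.1113 without both A pools, -0.2602 to 0.1951), the brightest HNRNPF probe set (-0.0437 without both A pools, -0.0938 to 0.0848), SF3B6 (-0.1945 to 0.0992), the brighter HNRNPDL probe set (-0.0801 to 0.0911) and SNRPA1 (-0.2432 to 0.0142). The cause was not tested. Differences are compressed in probe sets that stay near the floor of 2.12. Other probe sets under 5 could vary widely, such as the dim one of LSM5 (mean 4.36, pooled SD 0.98, difference -1.33).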
